A study of Mus musculus with 6 samples.

Results

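Leukotrienes are signalling lipids made from arachidonic acid, which phospholipases free from membranes. 5-lipoxygenase (Alox5) works with its membrane partner FLAP (Alox5ap) to make leukotriene A4, which Lta4h turns into leukotriene B4 and Ltc4s into leukotriene C4, the first of the cysteinyl leukotrienes. Cysltr1 and Cysltr2 encode receptors of the cysteinyl leukotrienes and Ltb4r1 a receptor of leukotriene B4. Cyclooxygenases lead from arachidonic acid to the prostanoids, of which prostaglandin E2 is read by Ptger4 among others, and Ptafr encodes the receptor of platelet activating factor (PAF), another lipid mediator. These receptors couple to G proteins and are best known from myeloid cells and, in part, lymphocytes.

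The 9 genes described here are Cysltr1, Cysltr2, Ltb4r1, Alox5, Alox5ap, Lta4h, Ltc4s, Ptger4 and Ptafr, taken by symbol from a table of 37620 genes, which held all 9. The choice was selected on the log2 fold change of Cysltr1, which was much higher with Sox2 in these same libraries. Its levels are therefore given as a description with no test. The other 8 were taken for their place in the pathway, but with earlier results of these data known. Their adjusted p are thus not independent of the choice. The series compared B cells from the spleens of C57Bl/6 mice aged 4 months, cultured with anti-CD40 (1 µg/ml) and IL-4 (12.5 µg/ml). Both groups were infected with a retroviral vector at 24 and 48 h and sorted for mCherry, the infection marker, at 96 h. The control group carried the vector pMIR (3 libraries) and the other group pMIR-Sox2 (3 libraries), which adds the transcription factor Sox2. The promoter that drives Sox2 was not given in the sources used here, nor whether the replicates came from separate mice, and the p-values therefore speak only of the spread among these 6 libraries, which may be technical.

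The pMIR libraries held 21421769 to 27692437 reads counted in genes, and those of pMIR-Sox2 17153805 to 20770447. Sox2 had 7 to 37 counts in pMIR libraries and 10763 to 21528 in pMIR-Sox2 libraries, as labelled. The 10 B cell markers were all read, and 7 of them fell with Sox2, 1 rose and 2 did not pass the test. Of all genes tested 20% fell and 23.2% rose. Levels are given as CPM, a gene's count relative to the size of its library, scaled by the trimmed mean of M values (TMM). The B cell markers summed to 16600 to 20248 CPM in pMIR libraries and to 9498 to 12795 CPM in pMIR-Sox2 libraries. Their median log2 fold change was −0.85. A CPM is a share of the RNA read, so in these bulk samples fewer cells of a type and less RNA per cell cannot be told apart. A library with 3 counts of a gene stood at 0.111 to 0.174 CPM, and counts at or under 3 are read as not told apart from 0.

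Of the 9 genes, 2 were higher in every pMIR-Sox2 library than in every pMIR library, Cysltr1 and Alox5ap, and none was lower in every library. The other 3 members abundant enough to test, Lta4h, Ptger4 and Cysltr2, had overlapping groups, and 4 (Alox5, Ltb4r1, Ltc4s and Ptafr) fell below the filter on low counts, which asks for about 10 counts (0.474 CPM) in at least 3 libraries. This cutoff applies to library sizes before TMM. Cysltr1 was above it in all 6 libraries. Alox5ap (13 counts) fell just under it in pMIR replicate 1, where it stood at 0.479 CPM after TMM. Alox5ap thus passed the filter only with pMIR-Sox2 libraries counted. With no filter on low counts it was still called (adjusted p = 0.00251 by edgeR). Testing used edgeR's quasi-likelihood test at an adjusted p of 0.05, without pairing the replicates. It called 43.2% of the 12898 genes tested in either direction, 23.2% higher and 20% lower. Groups did not overlap in 56.5% (28.9% higher and 27.6% lower with Sox2). The 2 called of 5 members tested, 40%, are a share near that background, and since the choice rested on Cysltr1 nothing is read from it. None of the 9 passed as lower, with edgeR, limma-voom or the DESeq2 Wald test. The median log2 fold change was 0.20 over the 5 members tested and −0.02 over all genes tested.

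**Figure D1:**
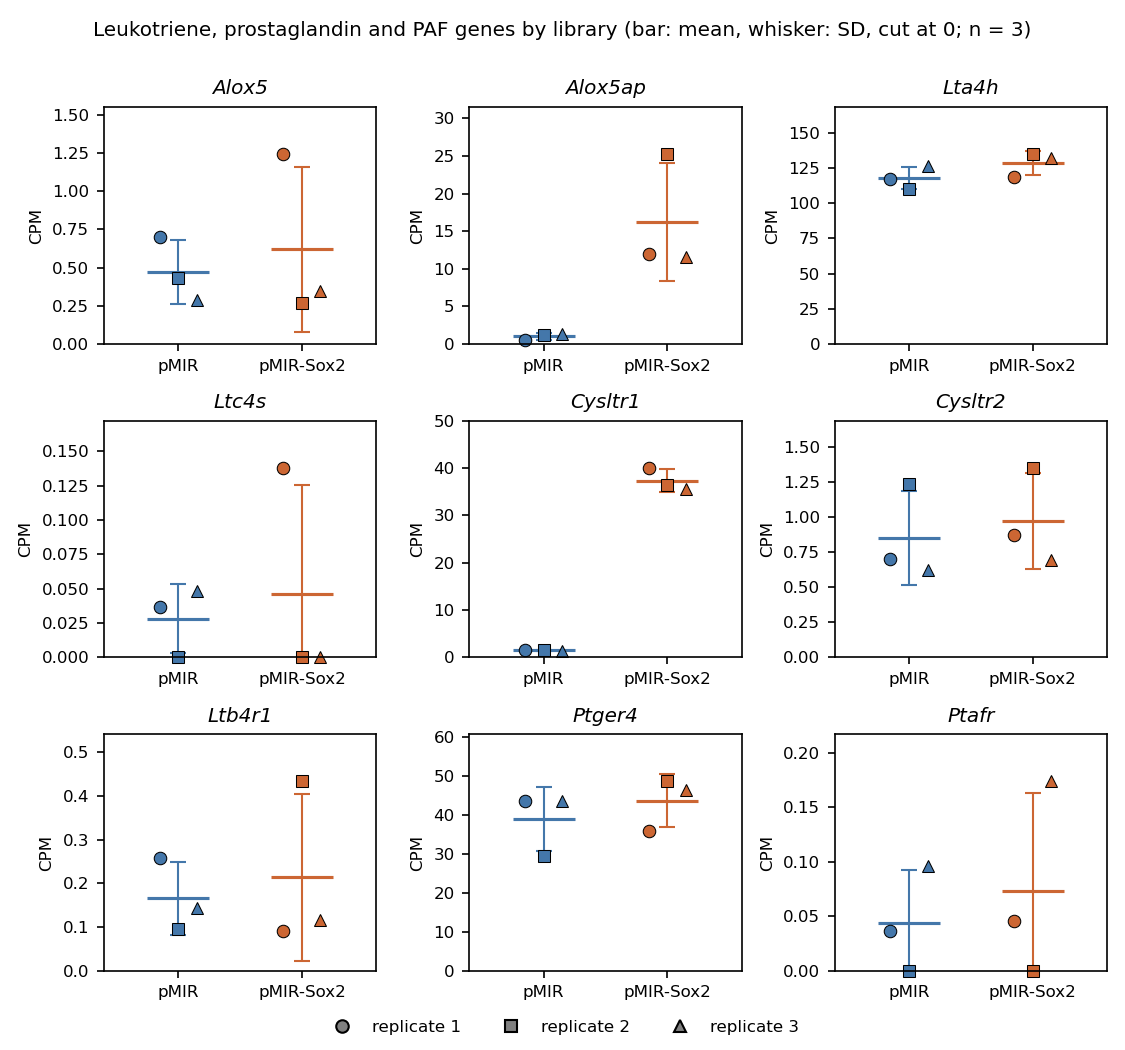
CPM of each of the 9 genes in the 3 pMIR (blue) and 3 pMIR-Sox2 (orange) libraries, with the group mean (bar) and SD (whisker, cut at 0); each panel has its own linear axis from 0. Cysltr1 (35.6 to 40.1 CPM with Sox2) and Alox5ap (11.5 to 25.2 CPM) stand above all pMIR libraries, and the groups overlap in the other 7 panels.

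Cysltr1, the receptor through which cysteinyl leukotrienes contract smooth muscle and move leukocytes, was near the lower end of the genes tested in pMIR and in the middle range with Sox2. It was read at 1.48, 1.67 and 1.30 CPM in pMIR replicates 1 to 3 (40, 35 and 27 counts). In pMIR-Sox2 replicates 1 to 3 it was read at 40.1, 36.5 and 35.6 CPM (872, 674 and 614 counts). All 3 pMIR-Sox2 libraries were thus far above all 3 pMIR libraries, and they lay close together, with a coefficient of variation of 6.34% against 12.6% in pMIR. The group means were 1.48 ± 0.186 and 37.4 ± 2.37 CPM (SD, n = 3 each), a ratio of 25.3. The log2 fold change was 4.65 ± 0.15 (SE), the 116th largest of the 12898 genes. It lay between 4.57 and 4.73 over 13 alternative fits, among them those without each library in turn. In pMIR, 14.4% of tested genes had a lower CPM than Cysltr1, and with Sox2 57.9% did.

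Cysltr2, the second receptor of the same ligands, stayed low in both groups, though above the floor of 3 counts in each library. It was read at 0.701, 1.24 and 0.624 CPM in pMIR replicates 1 to 3 and at 0.873, 1.35 and 0.696 CPM in pMIR-Sox2 replicates 1 to 3. Replicate 2 was the highest library of both groups, and the groups overlapped. The log2 fold change was 0.20 ± 0.38 (SE), with a 95% interval from −0.65 to 1.05 and an adjusted p of 0.694 in edgeR's quasi-likelihood test. A change of the size seen in Cysltr1 lies outside that interval, while a change of up to about that upper bound does not. Ltb4r1, the high-affinity receptor of leukotriene B4, had 7, 2 and 3 counts in pMIR and 2, 8 and 2 in pMIR-Sox2, so 12 counts in each group, and was too low to test. Ltb4r2, the low-affinity receptor of the same ligand, had at most 0.143 CPM in any library. Oxgr1 and Gpr17, further receptors linked to cysteinyl leukotrienes, had 0 counts in all 6 libraries.

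In GENCODE M21 on GRCm38, another build than the mm9 named in the submitters' processing notes, Cysltr1 lies on chromosome X and no annotated exon of another gene overlaps its exons. The annotation was used here for names, order and lengths only. Of the 8 genes next to it, 4 on either side, 7 were in the count table and 1 was abundant enough to test. That gene, Gm5127, lies within Cysltr1 on the opposite strand and was read at 0.286 to 0.432 CPM in pMIR and at 0.580 to 0.757 CPM with Sox2. The Sox2 libraries were all higher, but the gene did not pass the test (log2 fold change 0.77 ± 0.34 SE, adjusted p = 0.0975 by edgeR). With the strand setting of the counting not given, reads of Gm5127 cannot be told apart from reads of Cysltr1 introns. Fndc3c1, the nearest gene of the table on the other side, had 1, 1 and 0 counts in pMIR and 10, 8 and 3 in pMIR-Sox2. Among the other 5, 4 had no more than 1 count in any library.

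Alox5ap encodes FLAP, the membrane protein that hands arachidonic acid to 5-lipoxygenase. It was read at 0.479, 1.24 and 1.34 CPM in pMIR replicates 1 to 3 (13, 26 and 28 counts). In pMIR-Sox2 replicates 1 to 3 it was read at 11.9, 25.2 and 11.5 CPM (259, 466 and 199 counts). All 3 Sox2 libraries lay above all 3 pMIR libraries, but replicate 2 was more than double the other two. The means were 1.02 ± 0.472 CPM in pMIR and 16.2 ± 7.79 CPM with Sox2 (SD, n = 3 each), a ratio of 15.9 with a coefficient of variation of 48.1% among the Sox2 libraries. Alox5ap rose by a log2 fold change of 4.02 ± 0.44 (SE, adjusted p = 0.000186 by edgeR's quasi-likelihood test). It kept its call in all 13 alternative fits, with log2 fold changes from 3.55 to 4.27 and adjusted p of at most 0.00251. The annotated antisense gene Gm19719, not analysed here, overlaps exons of Alox5ap, and the strand setting of the counting was not given in the sources used here, so reads of both strands cannot be told apart.

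Alox5, the lipoxygenase that FLAP serves, did not follow it. Replicates 1 to 3 had 19, 9 and 6 counts in pMIR and 27, 5 and 6 counts with Sox2, or 0.701, 0.429 and 0.288 CPM and 1.24, 0.270 and 0.348 CPM. The groups overlapped, replicate 1 was the highest library in both, and the gene was too low to test. Ltc4s, leukotriene C4 synthase, had 1, 0 and 1 counts in pMIR and 3, 0 and 0 in pMIR-Sox2, at or under the floor of 3 counts in each library, so no ratio is given. The 6 other lipoxygenases of the mouse were low as well, and none passed the filter. The highest of them in pMIR, Alox15, had 0.095 to 0.406 CPM in pMIR and 0.054 to 0.138 CPM with Sox2, and Alox12e had 0 to 0.048 CPM and 0.138 to 0.232 CPM.

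Lta4h, the hydrolase that makes leukotriene B4 and also trims peptides, was abundant in both groups. It was read at 117, 110 and 127 CPM in pMIR and at 119, 135 and 132 CPM with Sox2, and the groups overlapped. Its log2 fold change was 0.12 ± 0.10 (SE), with a 95% interval from −0.10 to 0.35 (adjusted p = 0.351 by edgeR's quasi-likelihood test).

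Ptger4, the EP4 receptor that raises cyclic AMP on binding prostaglandin E2, was read at 43.6, 29.4 and 43.7 CPM in pMIR and at 36.1, 48.7 and 46.4 CPM with Sox2. The lowest library was pMIR replicate 2, the highest pMIR-Sox2 replicate 2, and the groups overlapped. The log2 fold change was 0.17 ± 0.17 (SE), with a 95% interval from −0.23 to 0.56 (adjusted p = 0.467 by edgeR's quasi-likelihood test). Exons of Ttc33 and of the pseudogene Gm15937 overlap those of Ptger4 on the opposite strand in GENCODE M21. How reads in such overlaps were counted was not given in the sources used here, so the counts of Ptger4 may be too high or too low. Ptafr had 1, 0 and 2 counts in pMIR and 1, 0 and 3 in pMIR-Sox2, at or under the floor in each library.

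Levels of different genes were compared per length, as CPM per kb of annotated exon. In pMIR the order was Lta4h (19.3 ± 1.33 CPM per kb, SD, n = 3), Ptger4 (5.85 ± 1.24), Alox5ap (0.719 ± 0.332), Cysltr2 (0.298 ± 0.117), Cysltr1 (0.288 ± 0.0362), Ltb4r1, Alox5, Ltc4s and Ptafr. The libraries of Alox5ap and Cysltr2 overlapped, as did those of Cysltr2 and Cysltr1, of Ltb4r1 and Alox5, and of Ltc4s and Ptafr. With Sox2 the order of the leading genes was Lta4h (21.1 ± 1.42 CPM per kb), Alox5ap (11.4 ± 5.49), Cysltr1 (7.27 ± 0.461), Ptger4 (6.58 ± 1.01) and Cysltr2 (0.339 ± 0.118). There the libraries of Cysltr1 and Ptger4 overlapped, as did each pair of neighbours from Cysltr2 downwards. Cysltr1 and Cysltr2 were thus at like levels per kb in pMIR libraries, and Cysltr1 was the higher of the pair by far in each pMIR-Sox2 library. Alox5ap with Sox2 stood at 11.4 CPM per kb beside an Alox5 level of 0.151 CPM per kb.

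**Figure D2:**
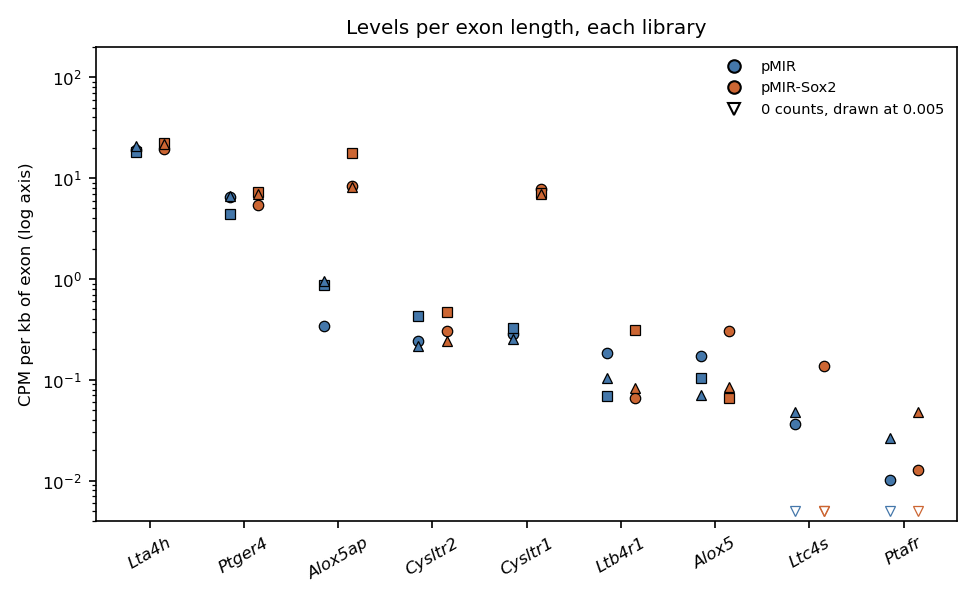
CPM per kb of annotated exon (log axis) of the 9 genes in each pMIR (blue) and pMIR-Sox2 (orange) library, with marker shapes for replicates as in the plot of CPM by library; open triangles mark 0 counts, drawn at 0.005. Alox5ap and Cysltr1 move from below 1 CPM per kb to the range of Ptger4 or above, and the other genes keep to their ranges.

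**Figure D3:**
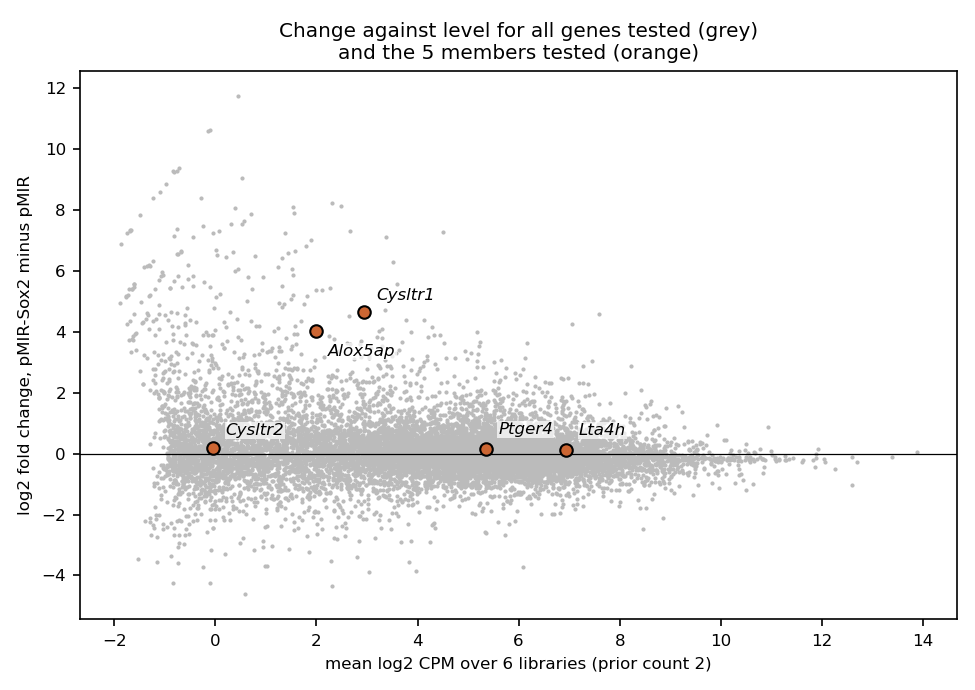
Log2 fold change of pMIR-Sox2 against pMIR (vertical) by mean log2 CPM over the 6 libraries (horizontal) for all genes tested but Sox2 (grey) and the 5 members tested (orange). Cysltr1 (4.65) and Alox5ap (4.02) lie in the upper fringe of the cloud, and Cysltr2 (0.20), Ptger4 (0.17) and Lta4h (0.12) lie near 0.

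The genes whose log2 CPM followed that of Cysltr1 most closely over the 6 libraries were Ythdf3, Rab3b, Rnf146, Dach1 and Ints12, each with Pearson r = 1.00 at 2 decimals. With 2 groups this far apart such a correlation mostly records the difference between them, and 885 of the 9346 genes compared had r above 0.95. The sizes of change in these 5 genes ran widely. Ythdf3, a reader of methylated RNA, went from 96.8 ± 2.06 to 157 ± 2.57 CPM (log2 fold change 0.70), and Ints12 from 24.8 ± 1.00 to 97.1 ± 4.35 CPM (1.97). Rab3b, a small GTPase of secretory vesicles, went from 0.253 ± 0.0754 to 25.9 ± 2.21 CPM (6.67). Dach1, a nuclear factor, had 3 counts in pMIR (1 per library) and 457 with Sox2, a ratio of 183 (exact 95% interval 62.1 to 889, counting error only). Rab3b and Dach1 passed the filter on low counts only with pMIR-Sox2 libraries counted. Nearest to Cysltr1 in level as well as in change were Cables1 (2.45 ± 0.978 to 34.6 ± 5.16 CPM), Gprasp2 (2.00 ± 0.213 to 26.2 ± 6.14 CPM) and Lrrtm2 (2.01 ± 0.325 to 53.5 ± 21.8 CPM).

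The wider pathway was read with lists taken from textbook knowledge of eicosanoid biology, also with earlier results of these data known. Of 79 symbols, 77 were in the table and 42 were tested. Of these 14 rose, 11 fell and 17 did not pass, so 59.5% were called beside 43.2% of all genes tested. Their median log2 fold change was 0.07 beside −0.02. Pla2g4a and Cyp2j9 passed the filter only with pMIR-Sox2 libraries counted, and Ptgs2 only with pMIR libraries counted. With no filter on low counts 14 rose and 9 fell. The counts of each smaller list are likewise to be set beside the 23.2% of all genes called higher and the 20% called lower. Leaving out pMIR replicates 1, 2 and 3 in turn left 6, 7 and 4 falls. Leaving out pMIR-Sox2 replicates 1, 2 and 3 in turn left 4, 3 and 12. The rises numbered 11 to 16 in the same fits.

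**Figure D4:**
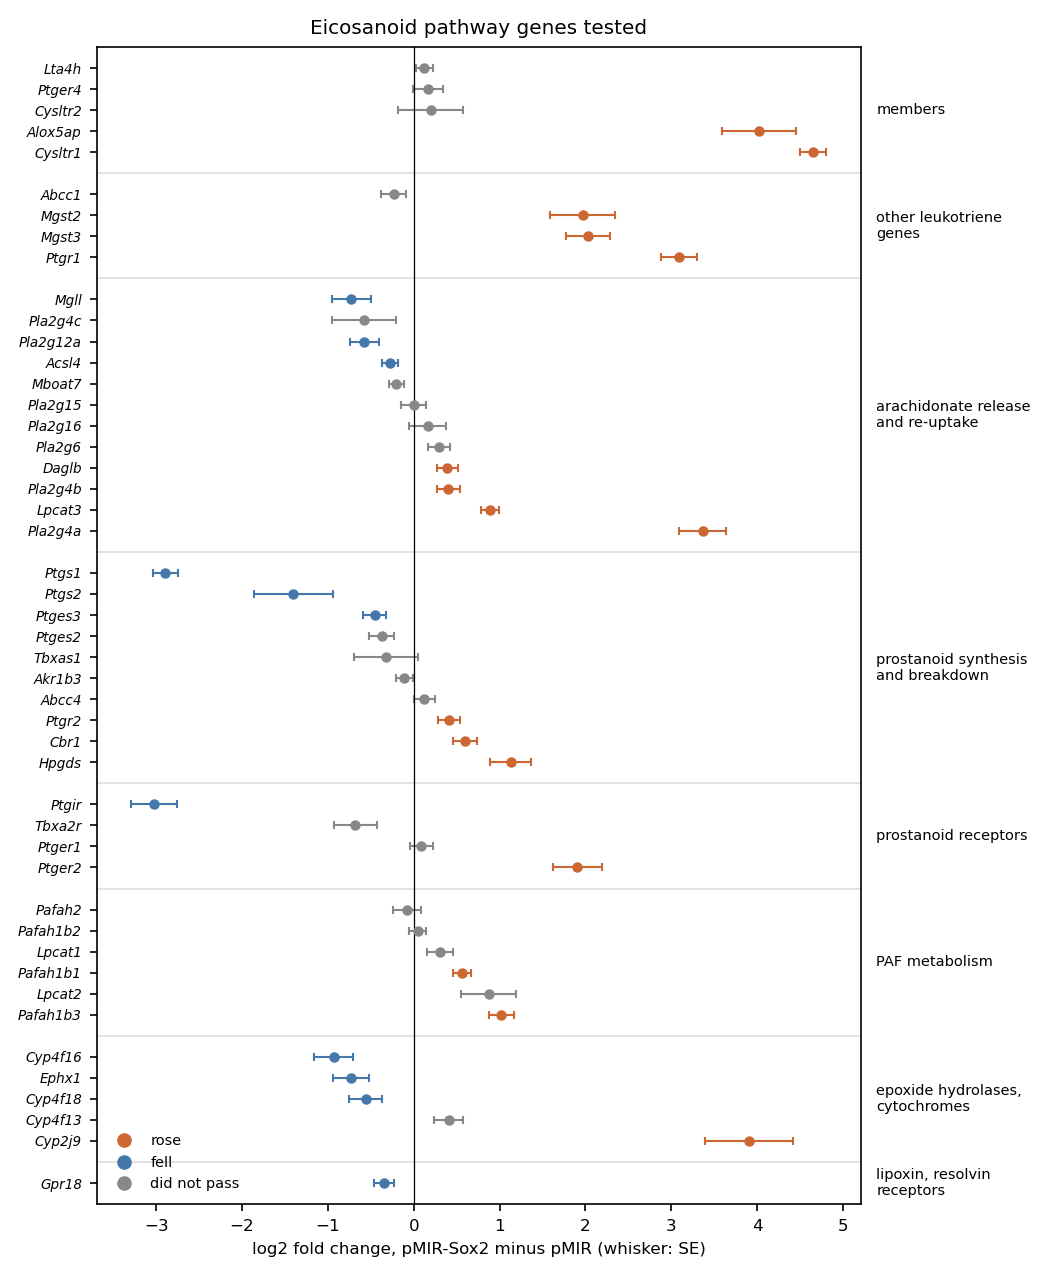
Log2 fold change of pMIR-Sox2 against pMIR with its SE for every tested gene of the members and of the 7 wider lists with a tested gene, coloured by call. The largest rises are Cysltr1 (4.65), Alox5ap (4.02), Cyp2j9 (3.90), Pla2g4a (3.36) and Ptgr1 (3.09), and the largest falls Ptgir (−3.02) and Ptgs1 (−2.89).

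Of 11 other leukotriene genes in the table, 4 were tested, 3 rose and 1, the exporter Abcc1, did not pass (log2 fold change −0.23). The 75% that rose stand beside 23.2% of all genes tested, and rest on 4 genes. Ptgr1, which oxidises leukotriene B4 and reduces the double bond of prostaglandin metabolites, was read at 3.10, 3.86 and 3.55 CPM in pMIR and at 28.4, 38.1 and 22.7 CPM with Sox2. All Sox2 libraries were higher, with a log2 fold change of 3.09 ± 0.21 (SE, adjusted p = 1.99e-05 by edgeR). Mgst2, a microsomal glutathione transferase that can make leukotriene C4 outside myeloid cells, was read at 4.94, 8.01 and 4.66 CPM in pMIR and at 16.8, 37.5 and 14.4 CPM with Sox2. Replicate 2 was the highest library in both groups, and the gene rose by 1.97 ± 0.37 (log2, SE; adjusted p = 0.00315, and 0.0511 with no filter on low counts). Its relative Mgst3 rose from 1.54 ± 0.0813 to 6.31 ± 1.90 CPM (n = 3 each), a log2 fold change of 2.03. The enzymes that trim leukotriene C4 to D4 and E4, Ggt1, Ggt5, Dpep1 and Dpep2, stood at 0.258 CPM or less in every library and were not tested.

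Of 18 genes of arachidonic acid release and re-uptake, 12 were tested, 4 rose, 3 fell and 5 did not pass. Pla2g4a, the calcium-dependent cytosolic phospholipase that frees arachidonic acid for leukotriene and prostanoid synthesis, was read at 0.627, 0.477 and 0.720 CPM in pMIR and at 6.98, 7.19 and 4.75 CPM with Sox2. Pla2g4a was higher in all Sox2 libraries and rose by 3.36 ± 0.28 on the log2 scale (SE, adjusted p = 4.37e-05 by edgeR). It passed the filter only with pMIR-Sox2 libraries counted, and was called with no filter too (adjusted p = 3.01e-13 by edgeR). Lpcat3, which puts arachidonic acid back into phospholipids, rose from 63.8 ± 5.98 to 118 ± 8.67 CPM (log2 fold change 0.89). Pla2g12a, a secreted phospholipase, fell from 134 ± 15.9 to 90.2 ± 22.4 CPM (−0.58), and Mgll, which splits monoacylglycerols, from 4.71 ± 1.11 to 2.86 ± 0.151 CPM (−0.72). The call of Pla2g12a ended when pMIR replicate 2, or pMIR-Sox2 replicate 1 or 2, was left out (adjusted p 0.0644 to 0.0817), and that of Mgll without any 1 library but pMIR replicate 2 (0.0549 to 0.11). Leaving out 1 library, the list had 0 falls without pMIR-Sox2 replicate 1 or 2 and 1 without any 1 pMIR replicate, and its rises 2 without pMIR replicate 1 or 2 or pMIR-Sox2 replicate 1 or 2.

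Of 15 genes of prostanoid synthesis, transport and breakdown, 10 were tested, 3 rose, 3 fell and 4 did not pass. Ptgs1, the cyclooxygenase COX-1, was read at 48.9, 60.5 and 46.3 CPM in pMIR and at 6.94, 6.22 and 7.82 CPM with Sox2. It was lower in all Sox2 libraries, by a log2 fold change of −2.89 ± 0.15 (SE, adjusted p = 6.6e-06 by edgeR). Ptgs2, the inducible COX-2, went from 3.18 ± 1.26 to 1.21 ± 0.719 CPM (−1.40, adjusted p = 0.0368, up to 0.122 when pMIR replicate 1 or 3, or pMIR-Sox2 replicate 1 or 2, was left out, which ended the call). It was named after its values were seen. Hpgds, which turns prostaglandin H2 into prostaglandin D2, was read at 61.3, 105 and 75.8 CPM in pMIR and at 148, 235 and 145 CPM with Sox2. Replicate 2 was again the highest library in both groups, and Hpgds rose by 1.13 ± 0.23 (log2, SE; adjusted p = 0.00479 by edgeR). Cbr1, a carbonyl reductase, rose by 0.60, and Ptges3, a prostaglandin E synthase better known as the chaperone p23, fell by 0.46 on the log2 scale, a call that ended without any 1 of the same 4 libraries (adjusted p 0.0575 to 0.0861). The list's falls numbered 1 without any 1 of those 4 libraries, and its rises 2. Ptgds and the breakdown enzyme Hpgd had at most 1 count in any library, and Ptges at most 0.143 CPM.

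Prostanoid receptors other than Ptger4 went both ways, with 4 of 8 tested, 1 risen, 1 fallen and 2 not passing (2 fallen with the replicate number as a block, with limma-voom, and without pMIR-Sox2 replicate 3). Ptger2, the EP2 receptor, which like EP4 raises cyclic AMP, was read at 1.25, 0.667 and 0.912 CPM in pMIR and at 3.63, 4.27 and 2.90 CPM with Sox2. All Sox2 libraries were higher (log2 fold change 1.91 ± 0.29 SE, adjusted p = 9e-04 by edgeR). Ptgir, the prostacyclin receptor, was read at 4.90, 6.91 and 5.81 CPM in pMIR and at 0.643, 0.595 and 0.927 CPM with Sox2, lower in all Sox2 libraries (−3.02 ± 0.27 SE, adjusted p = 5.66e-05). Ptger1, which signals through calcium, had 11.95 to 14.6 CPM in pMIR and 13.6 to 14.2 CPM with Sox2, and Ptgdr and Ptgfr had 0 counts throughout.

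The sequences before the start sites of Ptger2 and Ptger4 are shown because these receptors of the same ligand, both coupled to cyclic AMP, differed in their readout. They are from the RefSeq promoter table (GRCm38.p6), 250 bases up to the annotated start, 5′ to 3′ on the gene's strand, with a SOX motif in capitals where one was found. The motifs searched, on both strands, were AACAATG and AACAAAG. The pair was chosen after the values were seen.
Ptger2, chr14:44987861-44988110, plus strand: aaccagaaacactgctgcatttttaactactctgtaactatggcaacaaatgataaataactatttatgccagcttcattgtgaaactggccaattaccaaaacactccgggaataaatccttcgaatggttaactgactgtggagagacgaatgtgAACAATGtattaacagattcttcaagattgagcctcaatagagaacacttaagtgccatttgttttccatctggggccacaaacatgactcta
Ptger4, chr15:5244188-5244437, minus strand: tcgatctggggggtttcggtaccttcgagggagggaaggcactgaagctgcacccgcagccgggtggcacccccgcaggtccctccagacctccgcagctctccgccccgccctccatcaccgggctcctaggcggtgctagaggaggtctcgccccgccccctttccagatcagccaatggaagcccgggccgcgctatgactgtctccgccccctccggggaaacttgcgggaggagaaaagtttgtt
Ptger2 held AACAATG, beginning 93 bases before the start, and Ptger4 held neither motif. Of all 32851 windows of this length in the table, 3.29% held AACAATG and 5.03% AACAAAG. The table had an entry for 7 of the 9 members (not Cysltr1 or Alox5ap), and none of these 7 held either motif. A match is a description of letters, and no match says only that these letters are not in this window.

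Among 7 genes of PAF metabolism 6 were tested, 2 rose and 4 did not pass (4 rose with the replicate number as a block). Pafah1b3 and Pafah1b1, subunits of an intracellular PAF acetylhydrolase, rose from 57.2 ± 5.74 to 116 ± 22.0 CPM (log2 fold change 1.02) and from 219 ± 9.50 to 323 ± 30.5 CPM (0.56). The first is catalytic, and the other, LIS1, also serves the dynein motor. Of 7 epoxide hydrolases and cytochromes 5 were tested, 1 rose and 3 fell. Cyp2j9, one of the cytochromes, went from 5 counts over the pMIR libraries to 1.15 ± 0.438 CPM. Cyp2j9 passed the filter only through pMIR-Sox2, and was called with no filter too (adjusted p = 2.07e-07 by edgeR). Cyp4f16 fell from 18.9 ± 5.79 to 9.92 ± 0.612 CPM (−0.93). Ephx1 fell from 37.1 ± 7.17 to 22.5 ± 6.35 CPM (−0.73) and Cyp4f18 from 8.96 ± 1.43 to 6.04 ± 1.14 CPM (−0.56), but these calls ended in 3 and 4 of the 6 fits that left out 1 library (adjusted p up to 0.0793 and 0.16), and that of Cyp4f18 also with library totals only (0.0815). For Ephx1 the libraries were pMIR replicate 3 and pMIR-Sox2 replicates 1 and 2, and for Cyp4f18 replicates 2 and 3 of both groups. Only 1 fall was left without pMIR replicate 3 or pMIR-Sox2 replicate 2. The rises were 2 with the block, with library totals only and without pMIR-Sox2 replicate 3, and 0 where at least 1 CPM in 3 libraries was asked for. Of 5 receptors of lipoxins and resolvins only Gpr18 was tested, and it fell from 45.5 ± 3.87 to 35.8 ± 3.89 CPM (−0.35, adjusted p = 0.0395). That call ended without any 1 library but pMIR-Sox2 replicate 3 (0.0593 to 0.131), with library totals only (0.0785) and with no filter (0.0509).

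Receptors related to the cysteinyl leukotriene receptors, and the proteins they signal through, also went both ways. Of 21 other lipid receptors read here, 16 were tested, 5 rose, 6 fell and 5 did not pass. So 68.8% were called, beside 43.2% of all genes tested. Lpar6, a receptor of lysophosphatidic acid, was read at 5.68, 5.86 and 7.25 CPM in pMIR and at 58.5, 57.8 and 43.6 CPM with Sox2, higher in all Sox2 libraries (log2 fold change 3.09 ± 0.16 SE, adjusted p = 6.6e-06 by edgeR). Lpar1, another receptor of that lipid, had 3 counts in pMIR, all in replicate 3, and 125 with Sox2, a ratio of 49.9 (exact 95% interval 16.7 to 245, counting error only). Its fitted log2 fold change of 5.44 became 8.51 without pMIR replicate 3. Lpar1 passed the filter only through pMIR-Sox2, and was called with no filter too (adjusted p = 1.53e-10 by edgeR). Gpr132 fell from 182 ± 19.8 to 70.2 ± 10.9 CPM (−1.37), and S1pr4, a receptor of sphingosine 1-phosphate, from 26.8 ± 3.83 to 13.2 ± 1.62 CPM (−1.03).

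All 5 tested nucleotide and related receptors, relatives of Cysltr1, were called, 3 higher and 2 lower. Of all genes tested 43.2% were called, 23.2% higher and 20% lower. With 5 genes tested, the share is not read as a trait of these receptors. P2ry13, a receptor of ADP, rose from 1.92 ± 0.506 to 4.80 ± 0.767 CPM (1.33) and P2ry1, also for ADP, from 0.879 ± 0.203 to 1.91 ± 0.401 CPM (1.09). P2ry12, the ADP receptor of platelets and microglia, rose from 8.17 ± 1.09 to 12.3 ± 2.60 CPM (0.59), and Gpr171 fell from 87.3 ± 8.86 to 46.7 ± 16.1 CPM (−0.91). The call of P2ry1 ended without pMIR replicate 3 (adjusted p = 0.0535), and that of P2ry12 without pMIR replicate 1 or 3 or pMIR-Sox2 replicate 2 (0.105 to 0.116). Only 1 rise was left when pMIR replicate 3 was left out. The falls numbered 1 without any 1 library but pMIR-Sox2 replicate 3.

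Of 18 G proteins and effectors 15 were tested, 4 rose, 4 fell and 7 did not pass. So 53.3% were called, beside 43.2% of all genes tested. Itpr2 and Itpr1, channels that release calcium in answer to inositol trisphosphate, went in opposite directions. Itpr2 rose from 87.5 ± 7.21 to 227 ± 28.3 CPM (1.38), and Itpr1 fell from 133 ± 13.6 to 59.6 ± 7.37 CPM (−1.16). The adenylyl cyclase Adcy9 rose from 0.761 ± 0.0907 to 4.00 ± 0.394 CPM (2.38), and Adcy3 fell from 20.4 ± 2.28 to 12.5 ± 1.92 CPM (−0.70). The falls numbered 2 without pMIR replicate 1 and 2 with library totals only.

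**Figure D5:**
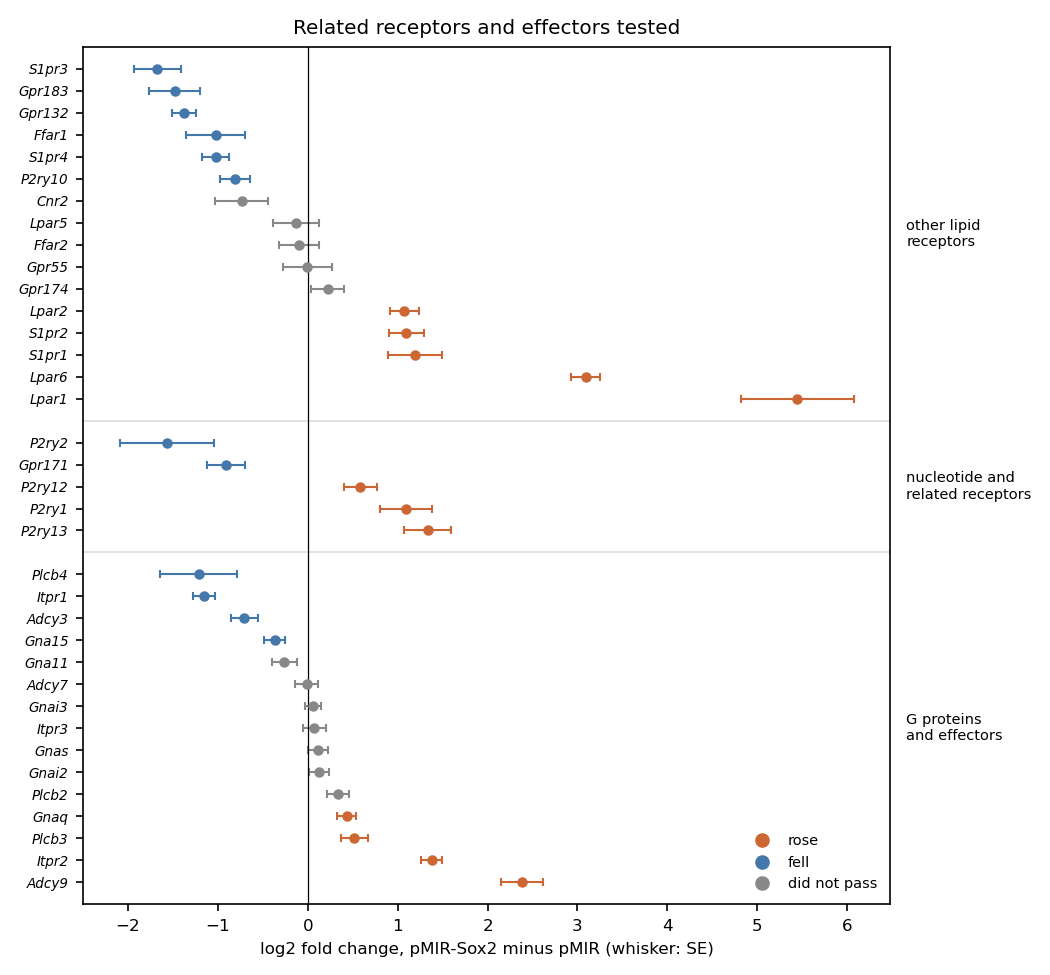
Log2 fold change of pMIR-Sox2 against pMIR with its SE for every tested gene of the lists of other lipid receptors, nucleotide and related receptors, and G proteins and effectors, coloured by call. Lpar1 (5.44, from 3 pMIR counts) and Lpar6 (3.09) lie highest, and falls reach −1.67 (S1pr3).

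Cysltr1, Alox5ap and other genes of the pathway are expressed in myeloid cells, so markers of other cell types are given beside them. The 12 macrophage and monocyte markers in the table summed to 37.0 to 39.3 CPM in pMIR and to 39.2 to 44.4 CPM with Sox2. Of 6 tested 4 rose (Emr1, Itgam, Ccr2 and Lyz2), 1 fell (Cd68) and 1 did not pass. Of all genes tested 23.2% rose and 20% fell. Lyz2 passed the filter only through pMIR-Sox2. Emr1 rose from 18.6 ± 1.80 to 27.4 ± 2.61 CPM (log2 fold change 0.56), Itgam from 0.558 ± 0.0718 to 3.79 ± 1.02 CPM (log2 fold change 2.76), and Lyz2 had 2 counts in pMIR and 38 with Sox2, a ratio of 22.8 (exact 95% interval 5.89 to 195, counting error only). Of the other markers of this list Cd163 and Lyz1 were at 0 in all 6 libraries, Cd14 had 1 count in all, and Csf1r stood at 0.524 to 0.738 CPM in pMIR and at 0.276 to 0.541 CPM with Sox2. The neutrophil markers summed to 0.576 to 2.14 CPM in pMIR and 0.290 to 1.41 CPM with Sox2, with 5 of 10 at 0 throughout, S100a8 and S100a9 among them. The markers of mast cells, basophils and eosinophils summed to 1.29 to 3.94 CPM and 4.06 to 7.44 CPM, with 5 of 10 at 0 throughout, Cpa3, Fcer1a and Mcpt8 among them. Of 2 tested, 1 rose, Prg2, which encodes a protein of eosinophil granules (1.23 ± 0.291 to 3.45 ± 1.00 CPM, log2 fold change 1.49). Dendritic cell markers summed to 33.3 to 43.4 CPM in pMIR and 11.99 to 15.3 CPM with Sox2. T and NK cell markers, of which Thy1 made up nearly all, summed to 160 to 223 CPM and 270 to 352 CPM, while Trbc1, Trbc2 and Ncr1 were at 0 throughout. The part of other cells in the levels of Cysltr1 and Alox5ap was not tested.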

How the data were processed

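The deposited table holds raw read counts per Ensembl gene, 1 column per library, and columns were matched to samples by the name in each sample's description. The build mm9 and the tools HTSeq 0.6.1p1, TopHat2 2.0.11, Bowtie2 2.2.2, Trimmomatic 0.32 and SAMtools 0.1.19 are named, without their roles, in the submitters' processing notes. No source used here gives the annotation release or the strand setting. Table lines that name no gene (5) stayed out of library sizes and tests, and genes held 51.9 to 53.2% of each library's total.

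Testing used edgeR 4.0.16 under R 4.3.3 on the counts (filterByExpr by group, TMM, robust quasi-likelihood fit of pMIR-Sox2 against pMIR, all 6 libraries). Benjamini-Hochberg adjustment ran over all 12899 genes, with a threshold of 0.05. Counts of genes leave out Sox2. SE is the size of the log2 fold change over the square root of F, and intervals use the fit's degrees of freedom. Log2 CPM has a prior count of 2. On simulated counts of this comparison (12755 genes tested) the test recovered 14 of 50 genes changed 1.5-fold, 43 of 50 at 2-fold, and all 50 at each of 4-fold and 8-fold. It made 7 false calls. Only these few genes were changed there and replicates were not paired, whereas 43.2% of genes were called in these data. Recovery and false calls may therefore differ in the real comparison. Alternatives were other scalings and filters, limma-voom (limma 3.58.1), DESeq2 1.42.0, a replicate block, and leaving out each library.

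Deviations from the group means were most alike between libraries of like replicate number, correlating at 0.242, 0.359 and 0.189 for replicates 1, 2 and 3. For unlike replicate numbers they correlated at −0.241 to 0.034. Deviations cancel out within a group, so positive values for like numbers lower the others, and this contrast is partly built in. The descriptions share a number (8, 9 or 12) within each pair of like replicate number. The main fit did not use this pairing, so its SEs, intervals and adjusted p are unpaired. The replicate block called 3486 genes higher and 3314 lower, against 2990 and 2577. Libraries of a group differed by more than sampling noise (chi-square over degrees of freedom of at least 15.1).

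The members and gene lists were chosen with earlier results of these data known. The rule named all 9 members. It named up to 4 genes per list with the smallest adjusted p, or 2 of highest CPM where none passed. It also named 4 neighbours of Cysltr1 on either side, and the genes most like it: 5 by correlation and 3 by distance, with at least 5 CPM in the higher group. Exon lengths, overlaps and neighbours are from GENCODE M21, which held 32897 of the 37620 identifiers and all 9 members. The symbols of 2 listed pathway genes were not matched. The exact intervals of count ratios and the floors cover counting error only. Intervals of log2 fold changes rest on the fit's SE, which also takes in the spread among libraries.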

Additional observations from a re-analysis of the deposited data

How the results depend on the processing

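Of the 8 genes beside Cysltr1, which was chosen for its rise, Alox5ap was called higher and 0 were called lower under all 13 alternatives, the fit with the replicate block included. Of 45 single genes named, 36 kept their call, or lack of one, under every alternative that gave a value, and 0 called genes changed sign. Cysltr2 and Ptger4, which were not called in any fit, ranged from −0.10 to 0.54 and from −0.01 to 0.29 on the log2 scale. Cysltr2 gave no value where at least 1 CPM in 3 libraries was asked for. Falls in the wider pathway numbered 3 to 12 when 1 library was left out, against 11. With library totals only, 17 of its genes rose and 8 fell, and with the replicate block 17 rose and 13 fell. Over all genes, rises numbered 2362 to 3321 and falls 1783 to 2885 when 1 library was left out, and 3486 and 3314 with the replicate block. With library totals only, 3414 rose and 2059 fell, against 2990 and 2577, and the median of all genes was 0.06 in place of −0.02. Besides the changes given beside the results, the block ended no call among the named genes. Alox5, Ltb4r1, Ltc4s and Ptafr are limited by depth, with 38 counts or fewer per group.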
